A study of Mus musculus with 26 samples.

Results

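Stromal cells of the undamaged mouse heart that carry SCA-1 on their surface were compared with those that lack it. The libraries were chosen by their labels, which give the state of the heart and the gate of the sort: 5 Sca-1 positive libraries (codes E1, E3, F3, A6 and B7) and 4 Sca-1 negative ones (codes E5, F3, A6 and B7), 9 of the 26 libraries of the series. Both gates came from C57BL/6 mice of the line B6.129S4-Pdgfratm11(EGFP)Sor/J with the genotype PDGFRa H2BEGFP+, in which the Pdgfra locus drives a green fluorescent protein fused to a histone, so that nuclei of Pdgfra-expressing cells glow green. The sort, per the series' design text, kept CD45- and CD31- cells with the green reporter, a gate meant to leave out leukocytes and endothelium. Both gates were thus sorted on the Pdgfra reporter and differ in SCA-1. No heart of either gate had its coronary artery ligated. Age, sex and pooling of animals are not in the labels used here, nor is a statement that libraries came from separate animals. The p-values therefore measure the spread between libraries, which may be technical. The main edgeR fit estimated that spread over 20 gated libraries, 11 of them from hearts at day 14 or day 28 after coronary ligation. In bulk libraries of this kind, fewer cells of a type and less RNA per cell cannot be told apart.

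SCA-1, encoded by Ly6a, is a lipid-anchored surface protein of the Ly6 family that is used in many mouse tissues to enrich stromal cells with colony-forming capacity, many of which lie in the outer layer of vessels. Cardiac fibroblasts hold the matrix of the heart, sense stretch and local hormones through receptors and ion channels, and signal to myocytes, vessels and nerves through secreted factors. Transcription factors set which of these programmes a fibroblast runs. The genes below were grouped by these roles, after the genes of a list of adventitial progenitor markers had been taken out.

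Ly6a, the gene of the sorted protein, had 1292, 729.8, 799.7, 282 and 323 CPM in positive libraries, against 78.6, 93.7, 19.2 and 22.3 CPM in negative ones. CPM here stands for counts scaled to a common library total after TMM normalization, and values run in the order E1, E3, F3, A6, B7 for positive and E5, F3, A6, B7 for negative libraries. The gates did not overlap, with a log2 difference (positive minus negative) of 3.68 ± 0.51 (SE; edgeR adjusted p = 0.000269). Pdgfra, which both gates were selected on, had 481 to 683 CPM in positive and 437 to 708 CPM in negative libraries, and its difference was 0.09 ± 0.19 (SE; edgeR adjusted p = 0.886). Ptprc, the gene of CD45, had 0 to 0.381 CPM in positive and 0 to 1.11 CPM in negative libraries, and Pecam1, the gene of CD31, had 24.5 to 47.3 CPM in positive and 23.4 to 56 CPM in negative libraries, with differences of -0.55 ± 1.19 (SE; edgeR adjusted p = 0.887) and -0.16 ± 0.44 (SE; edgeR adjusted p = 0.913). The libraries held 15.5 M to 22.3 M (mega) counts in genes in the positive gate and 10.9 M to 15.2 M in the negative one. At that depth, 3 counts corresponded to 0.135 to 0.276 CPM. Codes of the form letter and digit (E1, E3, E5, F3) and codes preceded by a number (A6, B7) form 2 families of libraries, here called letter-coded and prefixed; what the families stand for is not in the labels. The 3 libraries with the fewest detected genes were prefixed (positive B7 with 12977, negative A6 with 12325 and negative B7 with 12634 genes, against 14142 to 15309 in the others). Summed levels of 10 fibroblast markers were 82361 to 99065 CPM in positive and 77286 to 81189 CPM in negative libraries, without overlap. None of these markers was called by edgeR (1 at an unadjusted p under 0.05, 2 called by DESeq2, 0 by limma). A fit with the shared codes as pairs, described below, called 2 of them higher. Summed levels of 12 markers of mural cells, the pericytes and smooth muscle of vessels, were 344 to 549 CPM in positive and 664 to 1167 CPM in negative libraries, and 0 of the 12 had a difference above 0. Pdgfrb was the largest part of this sum, at 200.1 to 361.5 CPM in positive and 362.8 to 548.8 CPM in negative libraries. Marker sums of endothelium (273 to 471 and 243 to 510 CPM), leukocytes (11.2 to 33.0 and 11 to 18.4 CPM), cardiomyocytes (14.2 to 59.1 and 21.7 to 102 CPM), Schwann cells (51.0 to 71.8 and 46.1 to 69.4 CPM), epicardium (0.741 to 6.64 and 1.91 to 9.18 CPM) and adipocytes (55.6 to 146 and 68.8 to 188 CPM) overlapped between the gates, the positive range being given first in each pair. Single genes made up much of some sums. Gsn held 45410 to 55790 CPM of the fibroblast sum in positive and 37900 to 42560 CPM in negative libraries. Tek held 182.8 to 236.6 and 124.6 to 162.1 CPM of the endothelial sum. It was the only 1 of the 10 endothelial markers with a difference above 0, and their median was -0.74. Cdh19 held 40.18 to 63.13 and 26.55 to 58.6 CPM of the Schwann sum. Fabp4, in both the adipocyte and the endothelial list, had 33.31 to 132.1 and 46.65 to 158.6 CPM. The leukocyte gene Cd3e, the Schwann genes Sox10 and Gfra3 and the adipocyte genes Cidec and Lep were at 0 in all 9 libraries.

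In the main fit, receptors, ion channels and secreted factors held more genes called lower than higher in the Sca-1 positive cells. Transcription factors had 6 calls in each direction, at a share near that of all genes. The adventitial list, with 25 higher and 0 lower, was taken out of the classes but not out of all genes. The balance of directions in a class depends on that choice and was not tested. It also moved with single libraries. Secreted factors had 12 higher and 10 lower without negative E5, and 10 of each without positive A6. Receptors had 11 of each without positive B7. Of 2061 transcription factors, receptors, ion channels and secreted factors in the table, 1190 passed the low-count filter, and of these 27 were higher and 40 were lower at an adjusted p under 0.05. That is 5.63% of the tested members, against 3.1% of all 13812 genes tested (1.65% higher and 1.45% lower). Secreted factors had 11 higher and 13 lower of 285 tested, receptors 8 and 12 of 308, ion channels 2 and 9 of 170, and transcription factors 6 and 6 of 427, or 8.42%, 6.49%, 6.47% and 2.81% called. The median difference over the tested members was -0.11 for secreted factors, -0.13 for receptors, -0.10 for ion channels and -0.06 for transcription factors, beside 0.01 over all genes tested. Of all 13812 genes tested, 6997 had a difference above 0. Of the 1190 tested members 124 did not overlap between the gates, where 7.12% of all genes tested did not. With the codes F3, A6 and B7 kept as replicate blocks, 3.82% of 12382 genes were called, and the members called were 43 higher and 54 lower. The gate difference of this fit rests on these 3 pairs, as codes E1, E3 and E5 occur in 1 gate only. It used the 9 undamaged libraries and a level for each code, which leaves little to estimate the spread from. A call that ended in this fit therefore does not show that the gates are alike. In that paired fit the counts moved by over 1.5 times for transcription factors (10 higher), receptors (13 higher) and secreted factors (17 higher and 24 lower). Transcription factors were called there at 4.34%, beside 3.82% of all genes. DESeq2 called 9 of them higher and 20 lower, or 5.21% of the 557 it tested, beside 5.39% of all genes it tested. Without the 3 libraries with the fewest detected genes 1.86% of genes were called, with 16 members higher and 27 lower.

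**Figure D1:**
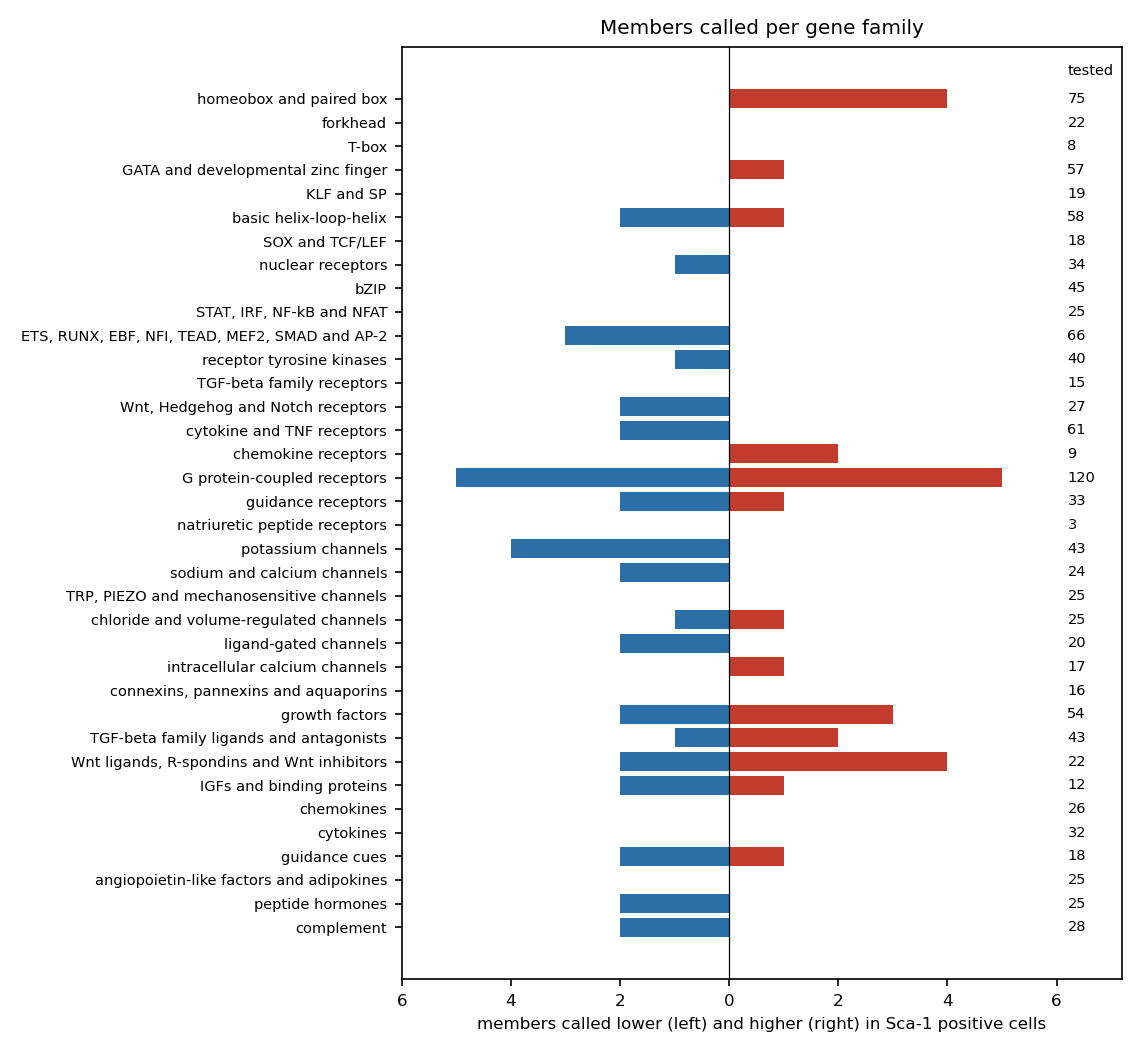
Number of members called per gene family at an adjusted p under 0.05, lower in Sca-1 positive cells to the left in blue and higher to the right in red, with the number tested at the right edge. The 4 homeobox genes called lie to the right, the 4 potassium channel genes lie to the left, and the G protein-coupled receptors have 5 on each side.

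For the member of each class that had the smallest p among those with a single start in the RefSeq promoter set used, the promoter is printed below to show the sequence next to the gene whose level differed. Members without an entry in that set, such as Msc, were passed over. The sequences run from 250 bases before to 50 bases after the RefSeq start on build GRCm38.p6, 5′ to 3′ on the strand of the gene. Capitals mark matches to TATAAA, to the homeodomain core TAATTA or to the E-box CANNTG, which basic helix-loop-helix factors bind, searched on both strands. These are Meox2 at chr12:37108290-37108589 on the plus strand, and on the minus strand Epha4 at chr1:77515039-77515338, Kcng4 at chr8:119635631-119635930 and Wnt10b at chr15:98778101-98778400.
Meox2: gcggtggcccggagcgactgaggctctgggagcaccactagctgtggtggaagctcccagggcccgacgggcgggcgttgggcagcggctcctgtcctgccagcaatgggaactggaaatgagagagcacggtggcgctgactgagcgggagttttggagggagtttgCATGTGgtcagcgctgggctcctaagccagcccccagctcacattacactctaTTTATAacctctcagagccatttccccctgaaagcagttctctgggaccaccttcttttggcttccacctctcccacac
Epha4: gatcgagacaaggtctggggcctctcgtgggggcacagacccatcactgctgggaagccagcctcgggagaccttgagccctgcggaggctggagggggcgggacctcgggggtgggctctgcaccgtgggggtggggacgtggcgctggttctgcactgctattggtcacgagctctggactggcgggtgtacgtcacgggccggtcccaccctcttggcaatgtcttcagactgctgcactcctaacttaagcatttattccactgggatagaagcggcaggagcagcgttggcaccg
Kcng4: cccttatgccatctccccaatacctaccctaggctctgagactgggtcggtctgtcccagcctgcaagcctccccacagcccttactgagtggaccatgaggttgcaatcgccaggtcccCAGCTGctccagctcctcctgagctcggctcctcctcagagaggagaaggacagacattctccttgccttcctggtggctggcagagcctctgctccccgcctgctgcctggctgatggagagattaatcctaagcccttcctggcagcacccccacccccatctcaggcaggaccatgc
Wnt10b: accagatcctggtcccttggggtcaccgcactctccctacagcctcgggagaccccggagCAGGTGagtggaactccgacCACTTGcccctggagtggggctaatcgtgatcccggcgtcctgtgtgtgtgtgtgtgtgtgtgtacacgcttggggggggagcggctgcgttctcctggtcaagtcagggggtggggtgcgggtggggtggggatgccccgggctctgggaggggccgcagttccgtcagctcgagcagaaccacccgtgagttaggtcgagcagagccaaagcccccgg
Over 32851 RefSeq promoters of this length, 13.6% held TATAAA, 5.29% held TAATTA and 72.3% held CANNTG. The Meox2 window held 1 TATAAA match (TTTATA on the printed strand) and 1 E-box, the Wnt10b window 2 E-boxes and the Kcng4 window 1, and these letters were not found in the Epha4 window. None of the 4 windows held TAATTA. CG dinucleotides numbered 12 in the Meox2, 17 in the Epha4, 4 in the Kcng4 and 18 in the Wnt10b window.

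Among transcription factors, the homeobox genes Meox2, Tshz1, Prrx2 and Lmx1a were higher in Sca-1 positive cells, and the basic helix-loop-helix genes Msc and Scx, the p53-family gene Trp63 and the ETS gene Ets1 were among those lower. Meox2, a homeobox factor of somites and vessels, had 32.4, 23.1, 40.2, 25.9 and 43.2 CPM in positive libraries, against 13.9, 15.8, 5.79 and 11.2 CPM in negative ones. No negative library reached the lowest positive one, and the log2 difference was 1.5 ± 0.31 (SE; edgeR adjusted p = 0.0084). Tshz1, a teashirt zinc finger homeobox factor, had 80.5, 99.9, 88, 142 and 91.9 CPM in positive libraries, against 66.7, 59.5, 59.5 and 47.5 CPM in negative ones, again without overlap and with a smaller difference of 0.78 ± 0.17 (SE; edgeR adjusted p = 0.0105). Prrx2, a paired-related homeobox gene of limb and facial mesenchyme, had 7.83 to 14.1 CPM in positive and 0.744 to 5.88 CPM in negative libraries, a difference of 1.71 ± 0.44 (SE; edgeR adjusted p = 0.0365). Its 4 negative values fell by family, with 5.88 and 4.29 CPM in the letter-coded and 1.16 and 0.744 CPM in the prefixed libraries, and the difference was 1.05 within the letter-coded and 3.21 within the prefixed libraries. The fourth homeobox gene called, Lmx1a, had 0.109 to 1.24 CPM in positive libraries and 0 counts in all 4 negative ones. In all, 4 of 75 tested homeobox and paired box genes were higher and 0 lower, 5.33% called beside 3.1% of all genes tested. Of the 75, 40 had a difference above 0, beside 6997 of all 13812 genes tested.

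Beside the homeobox genes, 2 transcription factor genes were higher. Arnt2, a partner of hypoxia-type and other PAS-domain factors, had 4.82 to 7.42 CPM in positive and 1.36 to 2.75 CPM in negative libraries. The difference was 1.64 ± 0.39 (SE; edgeR adjusted p = 0.0248). Prdm8, a zinc finger protein of the PR domain family, had 3.29 to 7.37 CPM in positive and 0 to 1.24 CPM in negative libraries. The difference was 3.01 ± 0.74 (SE; edgeR adjusted p = 0.0279). Neither gene overlapped between the gates, but both calls ended in the paired fit (adjusted p = 0.344 for Arnt2 and 0.326 for Prdm8).

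Musculin, encoded by Msc, is a basic helix-loop-helix repressor named for muscle precursors. Msc had 22.7, 21, 13, 20.3 and 33.3 CPM in positive libraries, against 42.6, 45.3, 51.9 and 56.2 CPM in negative ones, and every positive library lay below every negative one (-1.15 ± 0.22, SE; edgeR adjusted p = 0.0049). Ets1, an ETS factor active in vessels and mesenchyme, had 85, 94.9, 98.1, 91.6 and 79.9 CPM in positive libraries, against 163, 154, 134 and 120.0 CPM in negative ones, a smaller change of -0.67 ± 0.16 (SE; edgeR adjusted p = 0.0263) that was -0.78 within the letter-coded and -0.58 within the prefixed libraries. Trp63, a p53-family factor best known from stratified epithelium, had 0.548 to 0.947 CPM in positive and 1.7 to 8.12 CPM in negative libraries. The difference was -2.74 ± 0.55 (SE; edgeR adjusted p = 0.00786). Scx, which encodes scleraxis of tendon progenitors, had 0.218 to 0.906 CPM in positive and 0.761 to 11.3 CPM in negative libraries. The difference was -3.12 ± 0.71 (SE; edgeR adjusted p = 0.0177). Both were low in the positive libraries, and the negative values were highest in the prefixed libraries, at 7.36 and 8.12 CPM for Trp63 and 4.38 and 11.3 CPM for Scx. Scx overlaps the gene Bop1 (30.4 CPM in positive and 28.0 CPM in negative libraries on average), so some of its reads may be uncertain. Thrb, the thyroid hormone receptor beta, had 6.96 to 13.3 CPM in positive and 16.6 to 27 CPM in negative libraries. The difference was -0.86 ± 0.22 (SE; edgeR adjusted p = 0.0332). In the paired fit the adjusted p was 0.287 for Trp63, 0.29 for Scx and 0.113 for Thrb, so these 3 calls ended there. Ebf4, an early B-cell factor family member, was the sixth gene called lower, at 1.5 to 2.45 CPM in positive and 2.56 to 5.86 CPM in negative libraries (paired fit adjusted p = 0.597).

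Without the 3 libraries of fewest detected genes, the adjusted p was 0.178 for Meox2, 0.115 for Tshz1, 0.229 for Prrx2, 0.0647 for Ets1, 0.155 for Trp63, 0.354 for Scx and 0.4 for Thrb, and the call of Msc held (0.016). The 2 counts of the class then were 2 higher and 3 lower. Leaving out single libraries also ended calls near the threshold. Over the 9 such fits the adjusted p ran from 0.00954 to 0.0307 for Meox2, 0.0103 to 0.0362 for Tshz1, 0.000713 to 0.0184 for Msc and 0.00486 to 0.0282 for Trp63, which kept their calls. It ran from 0.0188 to 0.0773 for Arnt2, 0.0201 to 0.0678 for Prdm8, 0.00922 to 0.109 for Prrx2, 0.00665 to 0.0928 for Scx, 0.0217 to 0.0747 for Ets1 and 0.0345 to 0.12 for Thrb. Leaving out positive E1 ended the call in each of these 6, and positive E3 in all of them but Thrb. Lmx1a lost its call in 5 of the 7 fits that tested it (adjusted p up to 0.0764) and Ebf4 in 8 of 9 (up to 0.118). Further libraries that ended calls were positive F3 for Arnt2, Prdm8 and Prrx2, positive A6 for Arnt2 and Thrb, positive B7 for Ets1 and Thrb, negative E5 and F3 for Arnt2, Prdm8 and Ets1, negative A6 for Prrx2 and Thrb, and negative B7 for Prrx2, Scx and Thrb. The counts for the class became 3 higher and 2 lower without positive E1, 2 and 3 without positive E3, 2 higher without positive F3 and 3 higher without negative F3.

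The transcription factors by which cardiac fibroblasts are usually recognised overlapped between the gates and were not called in the main fit. Tcf21, needed for the fibroblast lineage of the heart, had 209.9, 222, 254, 191 and 295 CPM in positive libraries, against 225, 296, 144 and 238 CPM in negative ones, and its difference was 0.05 ± 0.28 (SE; edgeR adjusted p = 0.955). Tbx20 had 411 to 816 CPM in positive and 593 to 714 CPM in negative libraries (-0.19 ± 0.22, SE; edgeR adjusted p = 0.749), Gata4 91.2 to 123 against 103 to 149 CPM (-0.24 ± 0.18, SE; edgeR adjusted p = 0.568) and Gata6 77.9 to 101 against 60 to 98 CPM (0.03 ± 0.17, SE; edgeR adjusted p = 0.957), all factors that also act in heart muscle development. Meox1, the close relative of Meox2, had 149.9 to 242 CPM in positive and 160.1 to 246 CPM in negative libraries, overlapping between the gates, with a difference of 0.04 ± 0.31 (SE; edgeR adjusted p = 0.969) that was 0.43 within the letter-coded and -0.45 within the prefixed libraries. Hic1, a repressor found in quiescent mesenchymal progenitors, had 39.2 to 97 CPM in positive and 59.6 to 137 CPM in negative libraries. The difference was -0.53 ± 0.3 (SE; edgeR adjusted p = 0.405). In the letter-coded libraries alone Hic1 was called lower (-0.83, edgeR adjusted p = 0.00332), and within the prefixed ones its difference was -0.16. Its gene overlaps Smg6 (55.7 CPM in positive and 62.3 CPM in negative libraries on average), so some of its reads may be uncertain. No call was made by edgeR among the 22 forkhead, 8 T-box, 19 KLF and SP, 18 SOX and TCF/LEF, 45 bZIP and 25 STAT, IRF, NF-kB and NFAT genes tested. At an unadjusted p under 0.05 these lists held 2, 3, 2, 2, 3 and 0 genes, DESeq2 called 1, 1, 0, 1, 1 and 0, and limma called 1, in the SOX and TCF/LEF list. The paired fit called 4 bZIP genes and 1 KLF or SP gene, and none in the other lists.

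**Figure D2:**
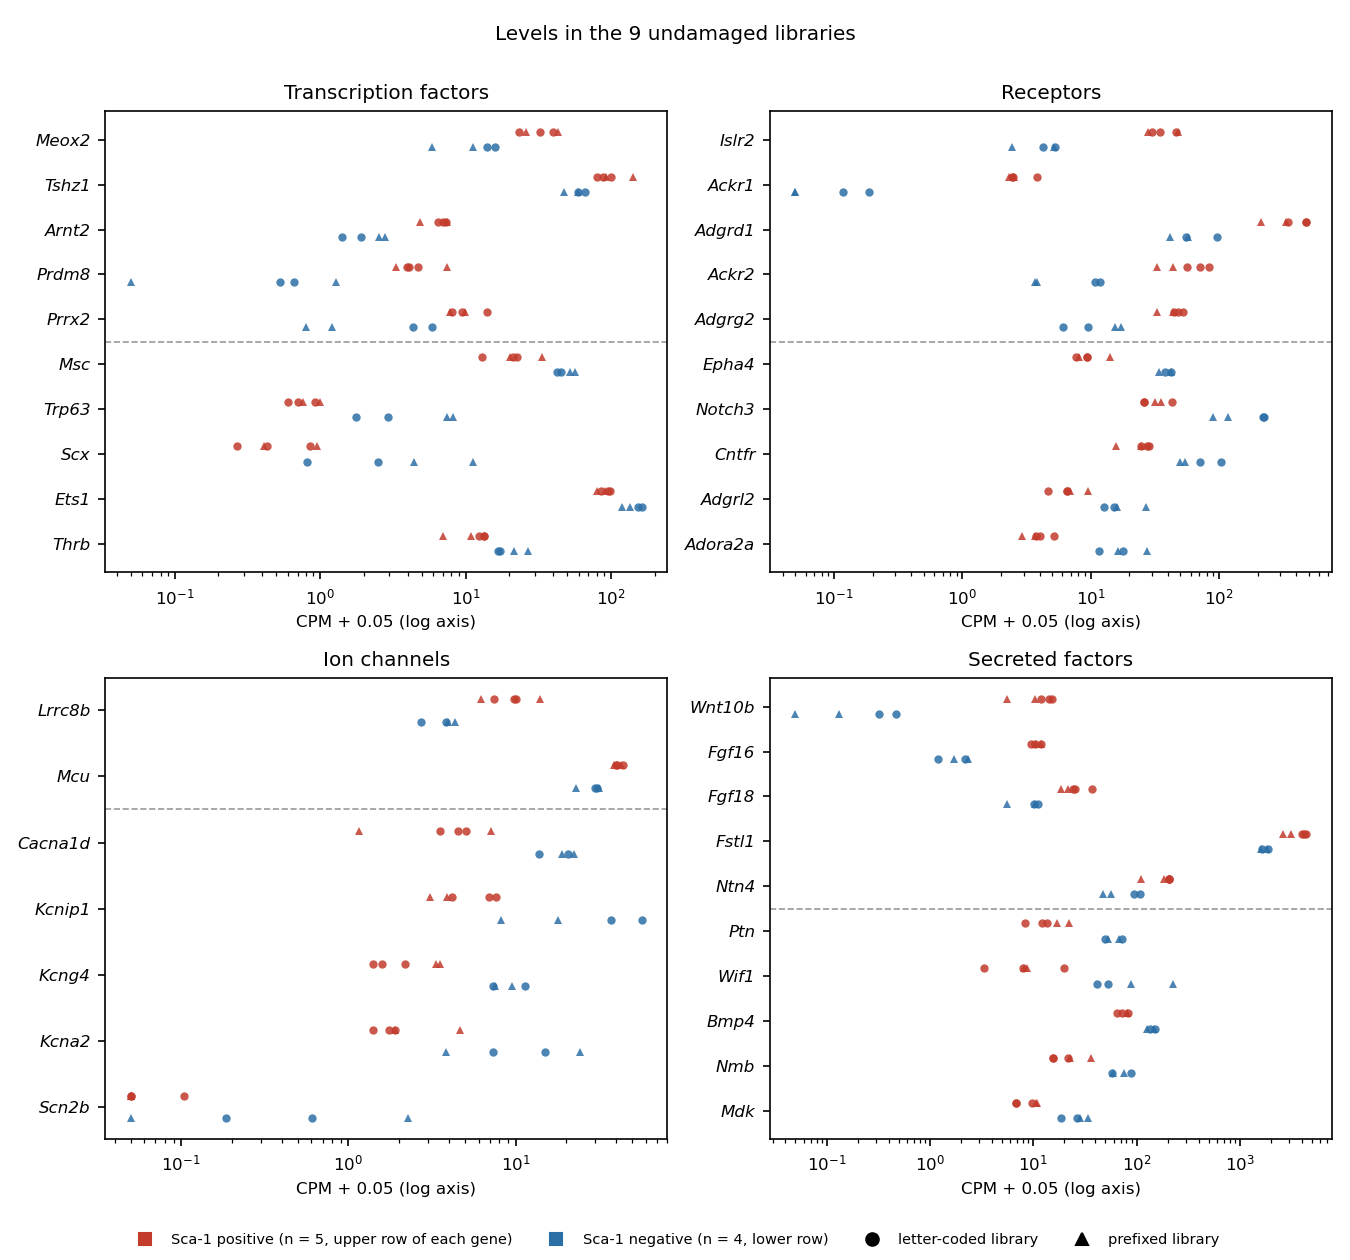
CPM plus 0.05 on a log axis for the genes with the smallest p per class and direction, 1 point per library, Sca-1 positive (red, n = 5) above Sca-1 negative (blue, n = 4), circles for letter-coded and triangles for prefixed libraries. Genes above the dashed lines were called higher and those below lower in positive cells. Scx, Kcna2 and Scn2b are the genes whose gates overlap.

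Among receptors, the atypical chemokine receptors Ackr1 and Ackr2 and the adhesion G protein-coupled receptors Adgrd1 and Adgrg2 were higher in Sca-1 positive cells, and the adhesion receptor Adgrl2, an ephrin, a Notch, a neurotrophic cytokine and several hormone and neurotransmitter receptors were lower. Islr2, a leucine-rich repeat membrane protein of axon guidance in mice, had 29.7, 34.6, 46.2, 47.8 and 28 CPM in positive libraries, against 5.19, 4.22, 2.4 and 5.09 CPM in negative ones. The positive libraries lay above 27 CPM and the negative ones below 6 CPM, a log2 difference of 3.13 ± 0.3 (SE; edgeR adjusted p = 5.27e-06). The adhesion receptor Adgrd1 had 479, 476, 345, 330.2 and 211 CPM in positive libraries, against 96.5, 55, 57.6 and 41.4 CPM in negative ones. The difference was 2.56 ± 0.36 (SE; edgeR adjusted p = 0.000293). A second adhesion receptor, Adgrg2, had 44.7, 52.3, 48.1, 43.6 and 32.8 CPM in positive libraries, against 9.47, 6, 17.1 and 15.4 CPM in negative ones. The difference was 1.88 ± 0.31 (SE; edgeR adjusted p = 0.0014), or 2.64 within the letter-coded and 1.22 within the prefixed libraries. In each of these genes the lowest positive library exceeded the highest negative one.

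Ackr2, a decoy receptor that takes up inflammatory chemokines without G protein signalling, had 83.6, 71.2, 56.5, 43.7 and 32.9 CPM in positive libraries, against 10.8, 11.7, 3.64 and 3.78 CPM in negative ones. The gates did not overlap (2.95 ± 0.47, SE; edgeR adjusted p = 0.00112). Ackr1, the second atypical chemokine receptor called and also a gene of venular endothelium, had 2.45, 2.39, 3.79, 2.45 and 2.26 CPM in positive libraries, against 0.138, 0.0681, 0 and 0 CPM in negative ones, a fitted difference of 5.53 ± 0.73 (SE; edgeR adjusted p = 0.000175). Ackr1 overlaps Cadm3 by 1612 bases, and Cadm3 averaged 41.1 CPM in positive and 0.616 CPM in negative libraries, so reads counted for Ackr1 are uncertain. In the paired fit its adjusted p was 0.111. The remaining genes called higher were Lpar1, a receptor for lysophosphatidic acid, at 330.2 to 371 CPM in positive and 225 to 268 CPM in negative libraries (0.56 ± 0.13, SE; edgeR adjusted p = 0.0156), Gpr1, a chemerin receptor, at 1.24 to 3.86 CPM in positive and 0 to 0.681 CPM in negative libraries, and Npy4r, a receptor for pancreatic polypeptide, at 0 to 2.14 CPM in positive libraries and 0 counts in all negative ones. The paired fit did not call Gpr1 or Npy4r (adjusted p = 0.331 and 0.432). Of 9 chemokine receptors tested 2 were higher, and of 120 G protein-coupled receptors 5 were higher and 5 lower, 8.33% called. Of all genes tested 3.1% were called.

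Epha4, a receptor for ephrins on neighbouring cells, had 7.61, 9.3, 9.27, 14.2 and 8.11 CPM in positive libraries, against 42, 37.5, 42 and 33.9 CPM in negative ones. The difference was -2.0 ± 0.22 (SE; edgeR adjusted p = 1.82e-05), and the highest positive value came from A6. Notch3, a Notch receptor best known from mural cells, had 25.8, 26, 43.2, 31.8 and 35.2 CPM in positive libraries, against 219, 223, 90.1 and 117 CPM in negative ones. The difference was -2.32 ± 0.3 (SE; edgeR adjusted p = 0.000122). Its negative values were higher in letter-coded than in prefixed libraries, and the difference was -2.81 within the letter-coded and -1.64 within the prefixed libraries. Cntfr, the ligand-binding subunit for ciliary neurotrophic factor, had 27.6, 28.4, 24.4, 24.5 and 15.6 CPM in positive libraries, against 70.5, 103, 54.1 and 49.5 CPM in negative ones. The difference was -1.53 ± 0.24 (SE; edgeR adjusted p = 0.000832). Adora2a, an adenosine receptor, had 3.7, 3.97, 5.13, 3.65 and 2.84 CPM in positive libraries, against 11.6, 17.6, 27.1 and 16.2 CPM in negative ones. The difference was -2.23 ± 0.42 (SE; edgeR adjusted p = 0.00386), with an adjusted p of 0.0839 without the 3 libraries of fewest detected genes. Latrophilin 2, encoded by Adgrl2, had 4.62 to 9.45 CPM in positive and 12.7 to 26.8 CPM in negative libraries (-1.39 ± 0.22, SE; edgeR adjusted p = 0.00117), and its call ended in the paired fit (adjusted p = 0.0806). None of these 5 receptors overlapped between the gates, and each kept its call when any single library was left out.

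The other receptors called lower included several for circulating or neural signals. Adcyap1r1, the receptor for the neuropeptide PACAP, had 53.5 to 73.2 CPM in positive and 104 to 143 CPM in negative libraries. The difference was -0.99 ± 0.22 (SE; edgeR adjusted p = 0.0176). Avpr1a, a vasopressin receptor, had 3.04 to 10.4 CPM in positive and 10.5 to 34 CPM in negative libraries (-1.87 ± 0.42, SE; edgeR adjusted p = 0.0167), with a difference of -2.82 within the letter-coded and -0.67 within the prefixed libraries. The adrenergic receptor Adra1a had 0.399 to 2.51 CPM in positive and 2.86 to 15.8 CPM in negative libraries. The difference was -2.49 ± 0.58 (SE; edgeR adjusted p = 0.0197). Plxnd1, a semaphorin receptor, had 53.5 to 66.4 CPM in positive and 92.4 to 134 CPM in negative libraries, Lrp5, a Wnt co-receptor, 137 to 199.8 against 219 to 366 CPM, Gfra4, a co-receptor of the GDNF ligand family, 0 to 1.52 against 4.69 to 7.22 CPM, and Tnfrsf19 of the TNF receptor family 0.0996 to 1.85 against 2.63 to 11.8 CPM in positive and negative libraries. These members lie outside the rule for named genes and were named after their values were seen. In the paired fit the calls of Avpr1a, Adra1a, Gfra4 and Tnfrsf19 ended, with adjusted p of 0.176, 0.198, 0.215 and 0.159. Calls that ended when single libraries were left out were those of Lpar1 (negative F3, adjusted p = 0.0523), Adcyap1r1 (negative A6 or F3, up to 0.0525), Tnfrsf19 (positive E3 or negative A6, up to 0.0761) and Avpr1a (positive E3 or F3 or negative E5, up to 0.064). Without the 3 libraries of fewest detected genes the calls of Plxnd1, Tnfrsf19, Adra1a, Lrp5 and Adcyap1r1 ended (adjusted p = 0.0673, 0.0839, 0.0922, 0.0936 and 0.099). Leaving out single libraries, those of Adra1a and Gpr1 ended in 4, Gfra4 and Npy4r in 5 and Lrp5 in 7 of the 9 fits, with adjusted p up to 0.0913, 0.0682, 0.0673, 0.0581 and 0.105.

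The receptor genes chosen as anchors, Pdgfrb, Fgfr1, Tgfbr2, Agtr1a and Ednra, were not called in the main fit. In the letter-coded libraries alone, where 10.4% of all genes were called, edgeR called Pdgfrb and Ednra lower (adjusted p = 0.0105 and 0.0295). It called Tgfbr2 higher there (adjusted p = 0.0372). Pdgfrb, the second receptor for platelet-derived growth factors, had 349.6, 361, 354, 269 and 200.1 CPM in positive libraries, against 512, 549, 405 and 363 CPM in negative ones. All positive values lay below all negative ones, the difference was -0.57 ± 0.21 (SE; edgeR adjusted p = 0.16), and the gene was called in the paired fit (adjusted p = 0.00592). Fgfr1 had 355 to 607 CPM in positive and 316 to 552 CPM in negative libraries. The difference was 0.22 ± 0.19 (SE; edgeR adjusted p = 0.626). Tgfbr2, the type 2 receptor for TGF-beta, had 396 to 721 CPM in positive and 318 to 472 CPM in negative libraries. The difference was 0.44 ± 0.17 (SE; edgeR adjusted p = 0.189). The angiotensin receptor gene Agtr1a had 2.28 to 8.4 CPM in positive and 4.7 to 9.44 CPM in negative libraries. The difference was -0.39 ± 0.63 (SE; edgeR adjusted p = 0.834). Ednra, an endothelin receptor, had 6.48 to 17.3 CPM in positive libraries and 13.1, 10.8, 13.7 and 0.515 CPM in negative ones, a difference of -0.07 ± 0.51 (SE; edgeR adjusted p = 0.97) that was -0.77 within the letter-coded and 0.78 within the prefixed libraries. Of 15 TGF-beta family receptors and 3 natriuretic peptide receptors, edgeR called none; 2 and 1 had an unadjusted p under 0.05, and DESeq2, limma and the paired fit called 0.

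Mural markers stood beside these receptors and the channels that follow. Notch3, Abcc9 and Vtn, which are called lower here, are also 3 of the 12 mural markers. DESeq2 called 7 of the 12 lower and limma 5, where they called 5.39% and 3.78% of all genes tested. The paired fit called 3 of the 11 it tested lower, beside 3.82% of all genes. Between the gates 7 of the 12 did not overlap, where 7.12% of all genes tested did not. Rgs5, a defining pericyte gene, had 2.55 to 9.76 CPM in positive and 13.3 to 20.9 CPM in negative libraries (-1.85 ± 0.51, SE; edgeR adjusted p = 0.0518), and Myh11 of smooth muscle had 1.90 to 10.4 and 7.95 to 22.4 CPM (-1.59 ± 0.65, SE; edgeR adjusted p = 0.222). Cspg4, which encodes NG2, had 0.165 to 12.8 CPM in positive and 5.26 to 21.0 CPM in negative libraries, and Acta2 had 30.5 to 42.6 and 34.6 to 69.4 CPM. The part of mural cells in the receptor and channel differences was not tested.

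Of 170 ion channel genes tested 9 were lower and 2 higher in the Sca-1 positive cells, 6.47% called beside 3.1% of all genes tested. Voltage-gated calcium and potassium channel subunits came first by p. Of the 170, 73 had a difference above 0, beside 6997 of all 13812 genes tested. Cacna1d, the pore subunit of an L-type calcium channel, had 3.48, 5.01, 4.48, 7.06 and 1.11 CPM in positive libraries, against 13.8, 20.6, 18.8 and 22.3 CPM in negative ones. The gates did not overlap (-2.16 ± 0.36, SE; edgeR adjusted p = 0.0014). The annotated gene overlaps Dcp1a, which averaged 27.7 CPM in positive and 30.7 CPM in negative libraries, so that some of its reads may be uncertain. Kcnip1, an accessory subunit of A-type potassium channels, had 6.85, 4.14, 7.57, 3.83 and 3.01 CPM in positive libraries, against 37.2, 56.8, 17.9 and 8.18 CPM in negative ones. The difference was -2.56 ± 0.48 (SE; edgeR adjusted p = 0.00434). Its negative values were spread from 8.18 CPM in B7 to 56.8 CPM in F3, and the difference was -2.92 within the letter-coded and -1.93 within the prefixed libraries.

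The silent potassium channel subunit Kcng4, whose promoter is printed above and which modifies other channels, had 2.12, 1.36, 1.54, 3.47 and 3.29 CPM in positive libraries, against 11.3, 7.22, 7.44 and 9.5 CPM in negative ones. The difference was -1.91 ± 0.37 (SE; edgeR adjusted p = 0.00526). Kcna2, a pore subunit of delayed rectifier channels in neurons, had 1.85, 1.36, 1.69, 1.85 and 4.61 CPM in positive libraries, against 14.9, 7.29, 3.8 and 24.1 CPM in negative ones. The difference was -2.46 ± 0.49 (SE; edgeR adjusted p = 0.00688). Kcng4 did not overlap between the gates, while the positive library B7 (4.61 CPM) lay above the negative library A6 (3.80 CPM) for Kcna2. Both calls ended in the paired fit (adjusted p = 0.24 for Kcng4 and 0.0892 for Kcna2). Abcc9, the sulfonylurea-binding subunit of ATP-sensitive potassium channels, had 52.3, 53.2, 61.7, 60.8 and 34.1 CPM in positive libraries, against 199, 209.8, 155 and 82.1 CPM in negative ones. The difference was -1.62 ± 0.37 (SE; edgeR adjusted p = 0.0167). Its partner pore gene Kcnj8 had 9.13, 8.82, 7.27, 10.2 and 11.4 CPM in positive libraries, against 24.4, 33.7, 13.9 and 14.9 CPM in negative ones, again without overlap, but was not called (-1.21 ± 0.5, SE; edgeR adjusted p = 0.221). Kcnj8, itself one of the 12 mural markers, was called lower by DESeq2 (adjusted p = 0.00224), with the family as covariate (0.025), in the 9 libraries alone (0.0418) and in the letter-coded libraries alone (0.000462). Of 43 potassium channel genes tested 4 were lower and 0 higher, 9.3% called beside 3.1% of all genes tested. Of the 43, 15 lay above 0, and the median difference was -0.37.

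Scn2b, an accessory subunit of sodium channels, was called lower at 0 to 0.0544 CPM in positive and 0 to 2.23 CPM in negative libraries. The positive value is a single count, and without the negative library A6, which had the 2.23 CPM, the call ended. Gria3, a glutamate receptor channel subunit, had 7.89 to 18.5 CPM in positive and 23.3 to 48.1 CPM in negative libraries (-1.43 ± 0.33, SE; edgeR adjusted p = 0.0202), Chrnb1, an acetylcholine receptor subunit of muscle, 10.9 to 25.2 against 25.5 to 35.7 CPM (-0.8 ± 0.22, SE; edgeR adjusted p = 0.0496), and Ano1, a calcium-activated chloride channel, 0 to 1.67 against 4.29 to 15 CPM (-3.6 ± 0.9, SE; edgeR adjusted p = 0.0298) in positive and negative libraries. The paired fit did not call Chrnb1 or Ano1 (adjusted p = 0.202 and 0.149). Leaving out single libraries ended the calls of Gria3 in 4, Ano1 in 5 and Chrnb1 in 8 of 9 fits, with adjusted p up to 0.0907, 0.0832 and 0.132. Without the 3 libraries of fewest detected genes the adjusted p was 0.288 for Gria3, 0.268 for Ano1 and 0.124 for Chrnb1. Of the 20 ligand-gated channel genes tested 1 had a difference above 0, beside 6997 of all 13812 genes tested, and the median was -0.67. Mcu, the pore of the mitochondrial calcium uniporter, and Lrrc8b, a subunit of volume-regulated anion channels, were the channel genes called higher. Mcu had 39.7, 43.6, 40.4, 42.4 and 38.9 CPM in positive libraries, against 29.7, 30.7, 31.4 and 22.8 CPM in negative ones, and Lrrc8b had 7.39, 9.69, 10.1, 13.9 and 6.13 CPM in positive libraries, against 3.8, 2.66, 3.89 and 4.29 CPM in negative ones. Both sets of values were free of overlap, with differences of 0.52 ± 0.14 (SE; edgeR adjusted p = 0.0468) and 1.36 ± 0.34 (SE; edgeR adjusted p = 0.0292), and both calls ended in the paired fit (adjusted p = 0.238 for each) and without the 3 libraries of fewest detected genes (0.186 for Mcu and 0.0571 for Lrrc8b).

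Over the fits that left out 1 library, the adjusted p was 0.00045 to 0.00666 for Cacna1d, 0.00108 to 0.0258 for Kcnip1, 0.00435 to 0.0213 for Kcng4 and 0.00192 to 0.0332 for Kcna2, below the threshold each time. It reached 0.102 for Scn2b (the call ended without positive E1, positive F3 or negative A6), 0.053 for Abcc9 (without negative F3), 0.0892 for Lrrc8b, whose call ended in 6 of the 9 fits, and 0.113 for Mcu, whose call held only without positive B7. With no channel gene called higher when positive E3, positive F3 or negative A6 was left out, the higher count of 2 ran from 0 to 3 over these fits, and the lower count of 9 ran from 5 to 9.

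Channels by which fibroblasts couple electrically or sense stretch were not called in the main fit. Gja1, which encodes connexin 43 of gap junctions, had 347, 501, 416, 109.7 and 66.9 CPM in positive libraries, against 142, 147, 64.8 and 45.1 CPM in negative ones. The positive libraries E1, E3 and F3 stood at 347 to 501 CPM and the positive A6 and B7 at 109.7 and 66.9 CPM, so the gates overlapped (1.53 ± 0.67, SE; edgeR adjusted p = 0.26), while in each code pair the positive library was higher, by 1.49, 0.76 and 0.56 log2 units for F3, A6 and B7. With the codes as blocks Gja1 was called (adjusted p = 0.0162), as it was with the family as covariate (0.0128) and in the letter-coded libraries alone (0.000685). Itpr1, a calcium release channel of the endoplasmic reticulum, had 116 to 201 CPM in positive and 162 to 309 CPM in negative libraries (-0.62 ± 0.22, SE; edgeR adjusted p = 0.141) and was called lower in the paired fit (adjusted p = 0.0426). In the letter-coded libraries alone Itpr1 was called lower too (edgeR adjusted p = 0.00747). The stretch-gated channel Piezo1 had 81.1 to 159 CPM in positive and 67.6 to 120.0 CPM in negative libraries. The difference was 0.34 ± 0.23 (SE; edgeR adjusted p = 0.512). Trpm7, a cation channel with a kinase domain, had 88.8 to 105 CPM in positive and 71.1 to 109 CPM in negative libraries. The difference was -0.04 ± 0.17 (SE; edgeR adjusted p = 0.953). Among 25 TRP, PIEZO and other mechanosensitive channel genes and 16 connexin, pannexin and aquaporin genes edgeR called none; 2 and 7 had an unadjusted p under 0.05, DESeq2 called 0 and 2, limma called 0, and the paired fit called 0 and 2.

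Among secreted factors, the Wnt ligand Wnt10b, the fibroblast growth factors Fgf16 and Fgf18 and the TGF-beta family modulators Fstl1 and Nbl1 were higher in Sca-1 positive cells, and both heparin-binding neurotrophic cytokines pleiotrophin and midkine, a Wnt inhibitor and Bmp4 were lower. Wnt10b, a ligand of the canonical Wnt pathway, had 11.7, 14.1, 15.1, 10.3 and 5.48 CPM in positive libraries, against 0.415, 0.273, 0.0827 and 0 CPM in negative ones. The negative values are at or near the level of 3 counts, so the fitted difference of 5.85 ± 0.62 (SE; edgeR adjusted p = 1.3e-05) depends on the prior count of the fit, and within the code pairs, after adding 0.5 CPM, the difference was 4.34, 4.21 and 3.58 for F3, A6 and B7. Wnt10b was thus detected in every positive library at 5.48 CPM or more and in no negative library above 0.415 CPM. Wif1, which binds and blocks Wnt ligands, went the other way and had 19.6, 7.89, 3.29, 8.13 and 8.65 CPM in positive libraries, against 41.3, 53.4, 228 and 88.6 CPM in negative ones. Its negative values ranged widely, with the highest in A6, and the difference was -3.43 ± 0.5 (SE; edgeR adjusted p = 0.000458), or -2.21 within the letter-coded and -4.23 within the prefixed libraries.

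Of 22 Wnt ligands, R-spondins and Wnt inhibitors tested, 4 were higher and 2 lower, 27.3% called beside 3.1% of all genes tested. Sfrp1, a secreted frizzled-like Wnt modulator, had 753, 508, 671, 459 and 429.5 CPM in positive libraries, against 310.0, 313, 358 and 306 CPM in negative ones. The difference was 0.81 ± 0.2 (SE; edgeR adjusted p = 0.0251), without overlap. Wnt6, a further Wnt ligand, had 2.27 to 3.48 CPM in positive and 6 to 9.82 CPM in negative libraries (-1.42 ± 0.34, SE; edgeR adjusted p = 0.0239), and its call ended in the paired fit (adjusted p = 0.377). Dkk2, a co-receptor antagonist, was called higher with 7.03 CPM in positive F3, 0.179 to 0.782 CPM in the other positive libraries and 0 to 0.204 CPM in negative ones, so its level rests on 1 library. Wnt1 was called higher at 0 to 1.58 CPM in positive and 0 to 0.0681 CPM in negative libraries. Leaving out single libraries gave adjusted p of 1.02e-05 to 0.000132 for Wnt10b and 0.000262 to 0.00271 for Wif1, and up to 0.0799 for Sfrp1, 0.0698 for Wnt6, 0.212 for Dkk2 and 0.102 for Wnt1, where the calls ended in 5, 5, 5 and 7 of 9 fits. These 4 calls also ended without the 3 libraries of fewest detected genes (adjusted p = 0.0707, 0.0526, 0.268 and 0.069). The co-receptor Lrp5, lower as given above, belongs to the same pathway.

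Growth factors were called in both directions. Fgf16, a fibroblast growth factor of heart and fat, had 9.4, 11.8, 10.4, 12 and 10.6 CPM in positive libraries, against 2.14, 1.16, 1.65 and 2.29 CPM in negative ones. The difference was 2.57 ± 0.31 (SE; edgeR adjusted p = 4.72e-05). Fgf18, known from skeletal growth, had 25.3, 24.1, 36.9, 21.7 and 18.6 CPM in positive libraries, against 11, 10.1, 10.4 and 5.55 CPM in negative ones. The difference was 1.45 ± 0.24 (SE; edgeR adjusted p = 0.00128). In neither gene did the gates overlap, and the difference was 2.67 within the letter-coded and 2.49 within the prefixed libraries for Fgf16, and 1.45 within the letter-coded and 1.34 within the prefixed libraries for Fgf18. Nov, a matricellular CCN protein, had 54, 71.2, 90.6, 66 and 44 CPM in positive libraries, against 16.1, 13.6, 7.86 and 6.58 CPM in negative ones. The difference was 2.56 ± 0.47 (SE; edgeR adjusted p = 0.00369), with an adjusted p of 0.0909 without the 3 libraries of fewest detected genes.

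Ptn, which encodes pleiotrophin, had 13.6, 8.27, 12.2, 16.8 and 22.2 CPM in positive libraries, against 49.4, 72, 67.3 and 53.1 CPM in negative ones. Mdk, which encodes the related midkine, had 6.74, 6.75, 9.72, 10.9 and 10.7 CPM in positive libraries, against 18.7, 26.4, 28 and 34 CPM in negative ones. Every positive library lay below every negative one for both, with differences of -2.05 ± 0.29 (SE; edgeR adjusted p = 0.000269) and -1.58 ± 0.26 (SE; edgeR adjusted p = 0.00124). The anchors Vegfa, an angiogenic factor, and Igf1, a growth factor made by fibroblasts, overlapped between the gates at 52.4 to 95.2 CPM in positive and 48.5 to 67.3 CPM in negative libraries for Vegfa and 215 to 319 against 219 to 468 CPM for Igf1 (0.39 ± 0.22, SE; edgeR adjusted p = 0.412, and -0.3 ± 0.22, SE; edgeR adjusted p = 0.547).

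In the insulin-like growth factor system 1 of 12 tested genes was higher and 2 were lower, 25% called beside 3.1% of all genes tested. Igfbp6, a binding protein with preference for IGF2, had 305, 333, 453, 315 and 280.1 CPM in positive libraries, against 229, 209, 151 and 129 CPM in negative ones. The difference was 0.91 ± 0.24 (SE; edgeR adjusted p = 0.0418). Igf2 itself had 8.86, 16.2, 23.6, 6.58 and 18.4 CPM in positive libraries, against 61.5, 87, 25 and 42.3 CPM in negative ones. The difference was -1.87 ± 0.42 (SE; edgeR adjusted p = 0.0167). Igfbp3, the main carrier of IGFs in blood, had 33.7, 49.1, 70.5, 78.5 and 77 CPM in positive libraries, against 166, 219, 241 and 346 CPM in negative ones. The difference was -1.98 ± 0.35 (SE; edgeR adjusted p = 0.00274). The binding proteins thus moved apart, Igfbp6 above and Igfbp3 below the negative gate in every library. Leaving out single libraries ended the call of Igfbp6 in 7 of 9 fits (adjusted p up to 0.128) and of Igf2 in 2 (without positive E1 or negative F3; up to 0.0676). Without the 3 libraries of fewest detected genes the calls of Igfbp3 (adjusted p = 0.0648) and Igfbp6 (0.329) ended.

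Bmp4, a ligand of the TGF-beta superfamily, had 71.8, 64.8, 82.4, 80.7 and 80.9 CPM in positive libraries, against 135, 152, 148 and 127 CPM in negative ones, a tight set of values with a difference of -0.88 ± 0.13 (SE; edgeR adjusted p = 0.000585). Fstl1, a secreted follistatin-like glycoprotein of the heart, had 4415, 3989, 4152, 3116 and 2603 CPM in positive libraries, against 1894, 1653, 1825 and 1597 CPM in negative ones. The difference was 1.07 ± 0.18 (SE; edgeR adjusted p = 0.00183). By family its difference was 1.24 within the letter-coded and 0.73 within the prefixed libraries, and the 2 prefixed positive libraries were the lowest of the positive ones. Nbl1, a secreted antagonist of BMPs also called DAN, had 226, 261, 319, 224 and 166 CPM in positive libraries, against 117, 119, 92.6 and 62.7 CPM in negative ones. The difference was 1.29 ± 0.28 (SE; edgeR adjusted p = 0.0137), with an adjusted p of 0.129 without the 3 libraries of fewest detected genes. Tgfb3, an anchor, had 208 to 261 CPM in positive and 168 to 222 CPM in negative libraries. The difference was 0.24 ± 0.22 (SE; edgeR adjusted p = 0.657).

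Guidance cues and peptides completed the class. Ntn4, a laminin-related netrin of basement membranes, had 206, 206, 207, 183 and 109.9 CPM in positive libraries, against 108, 94.1, 47.8 and 56 CPM in negative ones. The difference was 1.25 ± 0.22 (SE; edgeR adjusted p = 0.00283), and its lowest positive value (B7) lay just above its highest negative value (E5). Slit2, a ligand of Robo receptors, had 22.5 to 57.2 CPM in positive and 67.6 to 94.9 CPM in negative libraries. The difference was -0.76 ± 0.2 (SE; edgeR adjusted p = 0.0393). Spon1, a matrix protein of axon pathways, had 385 to 618 CPM in positive and 788 to 1176 CPM in negative libraries. The difference was -1.12 ± 0.23 (SE; edgeR adjusted p = 0.00969). Nmb, which encodes the peptide neuromedin B, had 15.6, 15.6, 21.7, 22.8 and 36.4 CPM in positive libraries, against 57.8, 87.6, 76.2 and 59.7 CPM in negative ones (-1.65 ± 0.26, SE; edgeR adjusted p = 0.000973), and Adm, the vasodilator adrenomedullin, had 63.4 to 152 CPM in positive and 199 to 275 CPM in negative libraries. The difference was -1.11 ± 0.23 (SE; edgeR adjusted p = 0.0101). Vtn, which encodes vitronectin, had 0 to 2.89 CPM in positive and 6.18 to 20.4 CPM in negative libraries (-3.12 ± 0.79, SE; edgeR adjusted p = 0.0326; paired fit adjusted p = 0.087), and Colec12, a membrane collectin, had 230.3 to 293 CPM in positive and 343 to 459 CPM in negative libraries. The difference was -0.61 ± 0.16 (SE; edgeR adjusted p = 0.0366). Without positive E1 or positive F3, 7 secreted factors were higher in place of 11. Slit2, Vtn and Colec12 each lost their call in at least 5 of the 9 fits that left out a library, with adjusted p up to 0.123, 0.0896 and 0.105. Without the 3 libraries of fewest detected genes the adjusted p was 0.0572 for Spon1, 0.0561 for Slit2 and 0.101 for Colec12.

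Chemokines and cytokines were not called in the fit without pairs. Cxcl12, the stromal chemokine, had 106 to 155 CPM in positive and 109 to 180.0 CPM in negative libraries. The difference was -0.19 ± 0.45 (SE; edgeR adjusted p = 0.899). Il6 had 354, 453, 539.9, 64.1 and 143 CPM in positive libraries, against 318, 386, 15.5 and 95.7 CPM in negative ones, and its values followed the families more than the gates, with all letter-coded libraries above 300 CPM and all prefixed ones below 150 CPM (0.61 ± 0.89, SE; edgeR adjusted p = 0.811). Of 26 chemokines, 32 cytokines and 25 angiopoietin-like factors and adipokines, edgeR called none; 4, 7 and 6 had an unadjusted p under 0.05, DESeq2 called 2, 1 and 1, and limma called 0, 3 and 0. The paired fit called 4, 1 and 1 of them.

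The direction of the called members was the same in both families of libraries and in nearly all code pairs. Among the 67 called members, 66 of 66 that could be fitted in the letter-coded libraries and 62 of 62 in the prefixed libraries had the sign of the full fit, and 64 had it in each of the 3 pairs F3, A6 and B7. These libraries are part of the full fit that chose the members, so the counts describe the called genes and support nothing. Meox2 differed by 1.32, 2.07 and 1.91 log2 units in pairs F3, A6 and B7, Islr2 by 3.3, 4.06 and 2.35, Epha4 by -1.96, -1.53 and -2.0 and Bmp4 by -0.88, -0.87 and -0.65. The spread between pairs was wide for Cacna1d (-2.08, -1.35 and -3.82) and Prdm8 (2.21, 1.12 and 3.98). The paired fit called 41 of the 63 members it tested, and 37 of 66 were called without the 3 libraries of fewest detected genes. When the 9 undamaged libraries were fitted alone, 47 of 63 were called. Of the 67, 34 were called in all 9 fits that left out 1 library each, and 33 were lost in at least one.

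**Figure D3:**
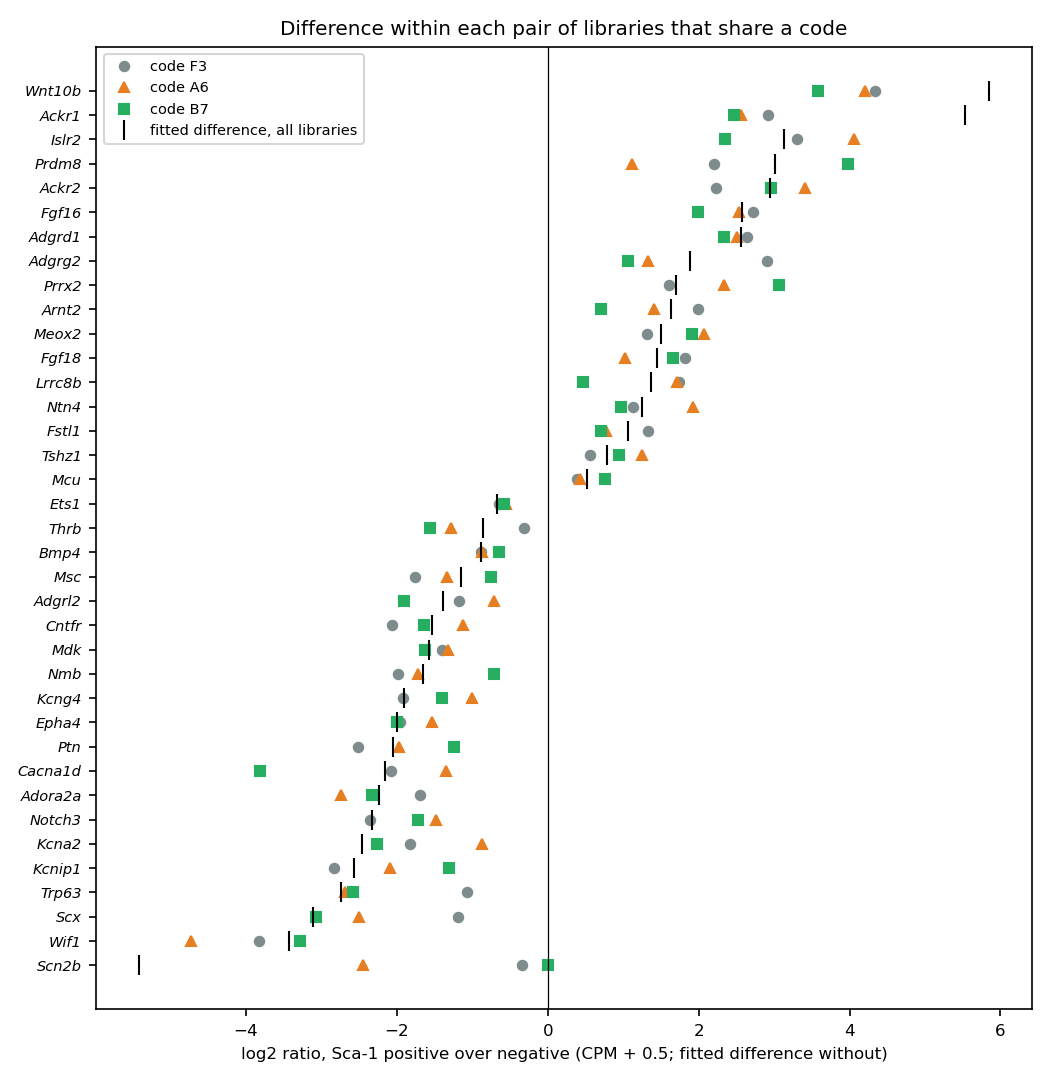
Log2 ratio of CPM plus 0.5, Sca-1 positive over negative, within the 3 pairs of libraries that share a code, for the genes named per class, with a black tick for the fitted difference over all libraries. The points of all genes but Scn2b lie on 1 side of 0. The fitted difference, which is made without the added 0.5 CPM, lies furthest beyond the pairs for Scn2b, Ackr1 and Wnt10b, and by less for some others.

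Called members covered a wide range of levels and differences. Among higher members the log2 difference had a median of 1.88 and a smallest value of 0.52, and among lower members the size had a median of 1.76 and a smallest value of 0.61. Fstl1 at 2603 to 4415 CPM in positive libraries and Spon1 at 788 to 1176 CPM in negative libraries show that called members reach high levels in CPM, which also rise with transcript length.

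**Figure D4:**
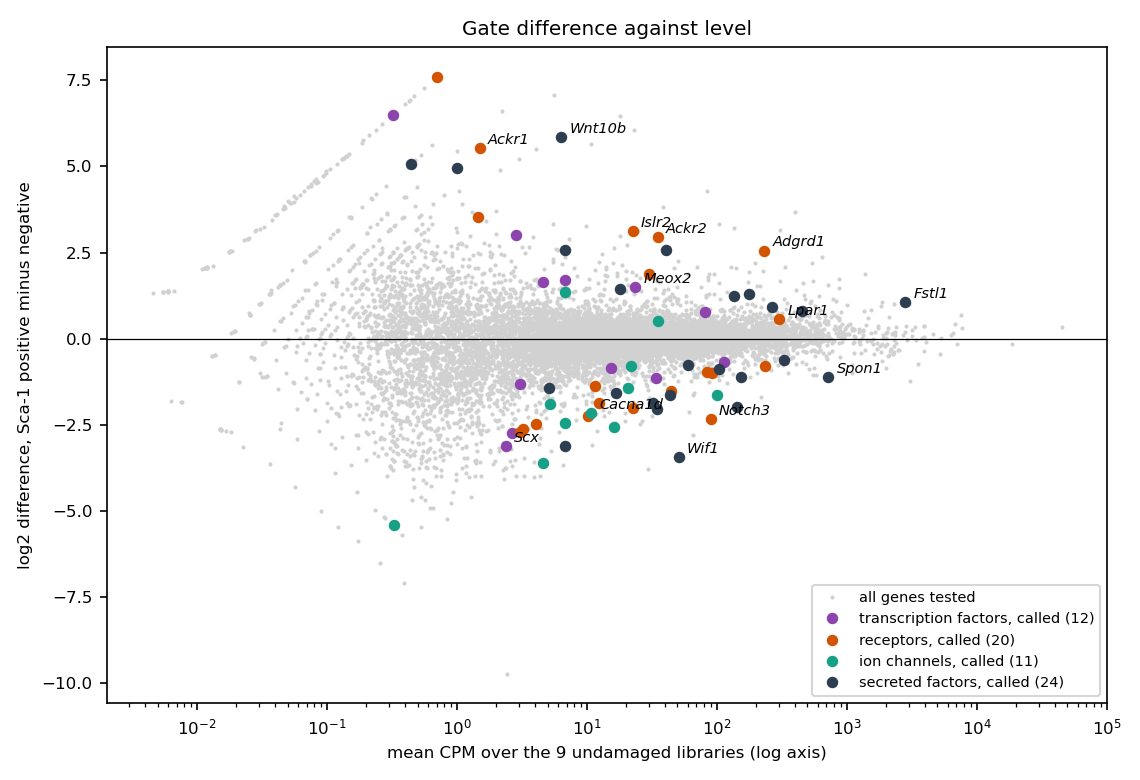
Log2 difference (Sca-1 positive minus negative) against mean CPM over the 9 libraries on a log axis, grey for all genes tested and coloured for the called members of each class. Wnt10b and Ackr1 stand high on the left with negative libraries near 0 counts, and Fstl1 and Spon1 lie at the right.

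In separate libraries sorted after coronary ligation, most called members had the same sign. At day 14 (2 libraries per gate) 65 of 67 members, or 97%, had the sign seen in undamaged hearts, beside 66.5% of all genes tested, and edgeR called none of them in the fit without pairs, with 0.0507% of all genes called (7 genes). At an unadjusted p under 0.05 there were 27 of the 67, beside 257 of all genes tested, and neither another tool nor a paired fit was run for this day, although its libraries share codes between the gates. Adm and Gfra4 had the opposite sign. At day 28 (4 positive and 3 negative libraries) 61 of 67, or 91%, had the same sign beside 63.4% of all genes tested, and 12 were called in the same direction where 0.594% of all genes were called: Msc, Notch3, Cntfr, Bmp4, Ackr2, Wnt10b, Wnt6, Nmb, Adgrg2, Lrrc8b, Mdk and Islr2. Mcu, Scn2b, Abcc9, Ano1, Igfbp6 and Sfrp1 had the opposite sign at day 28, none of them called. Msc differed by -1.70 ± 0.26 (SE; edgeR adjusted p = 0.00239) at day 28 and Bmp4 by -0.91 ± 0.15 (SE; edgeR adjusted p = 0.00515), beside -1.15 and -0.88 in undamaged hearts. Epha4 differed by -0.84 ± 0.25 (SE; edgeR adjusted p = 0.134) at day 28, beside -2.0 in undamaged hearts, and Islr2 by 1.48 ± 0.32 (SE; edgeR adjusted p = 0.031), beside 3.13. These times were fitted together with the undamaged libraries, and whether the differences changed with time was not tested here.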

How the data were processed

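Bulk RNA-seq libraries of sorted cardiac stromal cells were compared between 2 gates of undamaged hearts. The deposited values were counts, whole reads for each of 24421 genes; 2 further entries, for reads outside genes (5.53% to 13.5% of a library here) and ambiguous reads (0.361% to 0.646%), stayed out of all tests. Per the labels' protocols, a stranded mRNA kit and paired-end sequencing were used. The submitters' processing notes list STAR, TopHat, Bowtie2, Cufflinks, bcl2fastq and the build mm10; the counter, its strand setting and its annotation are not given in the sources used here, so overlapping genes can share reads. Symbols were matched to RefSeq (GRCm38.p6; 99.5%), whose promoters are printed.

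The fit used R 4.3.3 and edgeR 4.0.16: TMM scaling, filterByExpr, a quasi-likelihood model of 20 gated libraries in 6 groups, two-sided tests and Benjamini-Hochberg adjustment over 13812 genes, called at an adjusted p under 0.05. The 6 day 7 libraries were not used. CPM use the TMM-scaled totals. Values after ± are SE for log2 differences. Libraries of the same undamaged gate were not duplicates, as the chi-square per degree of freedom between their counts was 19.8 to 155. Libraries of separate gates and those of later days were not compared in this way. Deviations from the group means of the 2 libraries sharing a code in the titles correlated across genes at 0.321 (F3), 0.184 (A6) and 0.258 (B7), so the codes were taken as pairs; libraries of the same family but another code reached 0.0536 to 0.311, and those of separate families -0.252 to -0.0662. The paired fit used the code as a block over the 9 undamaged libraries.

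Named genes were 25 anchors, up to 5 called genes per class and direction by p, and up to 5 per direction outside the classes by size (at a mean log2 CPM from 3 upwards, gates apart, predicted models left out). Members and lists were chosen with earlier results of these data known. The adventitial list taken out (38 genes tested, 25 higher and 0 lower) was chosen the same way and supports nothing. Counts carry no molecular identifiers, so floors cover counting error. The procedure was tested on simulated counts that held no library families or code pairs, so that test does not cover them. Alternatives were DESeq2 1.42.0, limma 3.58.1 (voom), other size factors, no filter, family as covariate, each family alone, the 9 libraries alone, without the 3 libraries of fewest genes, and leaving out each library.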

Additional observations from a re-analysis of the deposited data

Results flagged for a closer look

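In each gate, the highest or lowest library was set against the others of the gate for the named genes, and 13 of 144 groups had a library apart at a level that chance reaches in about 1 in 20 groups. Prefixed libraries account for 10 of them. In Sca-1 positive cells, library B7 stood apart for Ednra (17.3 CPM, against 6.48 to 7.77 in the others), Kcna2 (4.61 CPM, against 1.36 to 1.85) and Ntn4 (110 CPM, against 183 to 207). Positive library A6 stood apart for Epha4 (14.2 CPM, against 7.61 to 9.30), Mrvi1 (13.5 CPM, against 6.92 to 7.56) and Lamc3 (28.2 CPM, against 4.98 to 10.1). Positive library F3 stood apart for Ackr1 (3.79 CPM, against 2.26 to 2.45), and positive library E3 for Scn2b (0.0544 CPM, against 0 in the other 4), which is a single count. In Sca-1 negative cells, library B7 stood apart for Tgfbr2 (318 CPM, against 459 to 472), Agtr1a (9.44 CPM, against 4.70 to 5.32) and Fgf18 (5.55 CPM, against 10.1 to 11). Negative library A6 stood apart for Gata6 (60 CPM, against 92 to 98), and negative library F3 for Trpm7 (71.1 CPM, against 103 to 109).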

How the results depend on the processing

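Over all genes, edgeR called 428 (228 higher and 200 lower). DESeq2 called 738 (346 and 392), the letter-coded libraries alone 1342 (597 and 745), the prefixed libraries alone 17 (14 and 3), the 9 undamaged libraries alone 271 (134 higher), and the fit without the 3 libraries of fewest detected genes 253 (132 and 121). Leaving out each library gave 265 to 482 calls (150 to 267 higher and 107 to 215 lower), with 265 without positive E1, 268 without positive E3 and 273 without positive F3. Of the 428 genes, 415 were called in the same direction by DESeq2, 242 by the paired fit, 238 by the 9 libraries alone, 371 and 17 by the letter-coded and the prefixed libraries, and 191 without the 3 libraries. No gene called both here and in one of these fits had opposite signs. The remaining alternatives stayed within 1.5 times: the replicate block (paired fit) with 473 calls (277 higher and 196 lower), the family as covariate with 581, limma-voom with 522, other size factors with 437 and no filter with 426. For the classes together, the counts of 27 higher and 40 lower became 46 and 75 with DESeq2, 68 and 142 in letter-coded libraries, 3 and 1 in prefixed libraries, and 17 and 37 in the 9 libraries alone; without positive F3 15 were higher and without positive E1 25 lower. Beyond the genes given in the report, the replicate block changed no call of a named gene. Smaller fits have fewer libraries; beyond that, the cause was not tested. Genes under about 3 counts per library (0.135 to 0.276 CPM) are limited by depth.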

Other observations

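Outside the 4 classes and the adventitial list, matrix and adhesion genes were among the largest differences. Itgb3, the integrin beta subunit of vitronectin receptors, had 30, 33.4, 35.1, 27.9 and 21.2 CPM in positive libraries, against 7.95, 5.52, 1.49 and 0 CPM in negative ones. The difference was 2.98 ± 0.62 (SE; edgeR adjusted p = 0.00944). Papln, which encodes the proteoglycan-like matrix protein papilin, had 40.8, 59.6, 58.2, 33.1 and 14.2 CPM in positive libraries, against 9.06, 7.56, 0 and 2.12 CPM in negative ones. The difference was 3.13 ± 0.64 (SE; edgeR adjusted p = 0.00882), and its gene overlaps Numb (60.3 CPM in positive and 55.7 CPM in negative libraries). Basp1, a membrane-associated signalling protein of growth cones, had 19.9, 25.1, 23.2, 33.7 and 27.6 CPM in positive libraries, against 0.484, 1.16, 4.38 and 10.6 CPM in negative ones. The difference was 2.62 ± 0.55 (SE; edgeR adjusted p = 0.00997). Anxa8, an annexin, had 9.96 to 26.7 CPM in positive and 2.52 to 6.29 CPM in negative libraries. The difference was 2.47 ± 0.42 (SE; edgeR adjusted p = 0.00173). Prrt4, a proline-rich membrane protein, had 29.3 to 38.1 CPM in positive and 1.9 to 7.15 CPM in negative libraries. The difference was 2.71 ± 0.41 (SE; edgeR adjusted p = 0.000628). In none of these did the gates overlap. DESeq2 did not call Itgb3 or Papln (DESeq2 adjusted p = 0.0641 and 0.0572). In the 9 undamaged libraries alone, the calls of Itgb3, Papln and Basp1 ended (edgeR adjusted p = 0.0688, 0.0633 and 0.0728).

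Among genes lower in Sca-1 positive cells, Fmod, the collagen-binding proteoglycan fibromodulin of tendon, had 15.5, 13.2, 17.2, 27.9 and 17.5 CPM in positive libraries, against 84.6, 46.7, 237 and 137 CPM in negative ones. The difference was -2.79 ± 0.51 (SE; edgeR adjusted p = 0.00357). Fbn2, the microfibril protein fibrillin 2, had 6.14, 4.63, 1.59, 6.4 and 15.1 CPM in positive libraries, against 19.9, 16.1, 58.8 and 48.6 CPM in negative ones (-2.39 ± 0.46, SE; edgeR adjusted p = 0.00493), and Lamc3, a laminin gamma chain, had 6.79, 9.47, 4.98, 28.2 and 10.1 CPM in positive libraries, against 75.1, 38.5, 78.5 and 32.6 CPM in negative ones. The difference was -2.24 ± 0.52 (SE; edgeR adjusted p = 0.0199). For Fmod and Fbn2 the prefixed negative libraries were the highest, and without the 3 libraries of fewest detected genes the adjusted p was 0.161 for Fmod, 0.0184 for Fbn2 and 0.122 for Lamc3. The call of Lamc3 also ended in 5 of 9 fits that left out a library (adjusted p up to 0.0683), namely without positive E1, E3 or F3, or negative A6 or E5. That of Fbn2 ended in the 9 undamaged libraries alone (edgeR adjusted p = 0.0515). Mrvi1, a partner of the inositol trisphosphate receptor in smooth muscle, had 7.5, 7.56, 7.12, 13.5 and 6.92 CPM in positive libraries, against 53.2, 54.2, 38.5 and 44.7 CPM in negative ones (-2.49 ± 0.23, SE; edgeR adjusted p = 4.92e-06), beside the mural marker sums of 344 to 549 CPM in positive and 664 to 1167 CPM in negative libraries, whose part was not tested. Gng2, a G protein gamma subunit, had 2.77 to 6.76 CPM in positive and 12.7 to 31.3 CPM in negative libraries. The difference was -2.19 ± 0.31 (SE; edgeR adjusted p = 0.000274).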
